A study of Mus musculus with 4 samples.

Results

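The miR-322, miR-503, miR-450 and miR-542 cluster was measured in the stromal vascular fraction (SVF) of visceral white adipose tissue (visWAT), the cells that remain once mature adipocytes have been floated off a collagenase digest. Its members here were 9 mature arms, found on an Agilent mouse miRNA array by their exact names among 1247 mouse miRNAs: mmu-miR-322-5p, mmu-miR-322-3p, mmu-miR-503-5p, mmu-miR-351-5p, mmu-miR-542-5p, mmu-miR-542-3p, mmu-miR-450a-5p, mmu-miR-450b-5p and mmu-miR-450b-3p (written below without the mouse prefix). Female mice aged 8 weeks, with no allele named in the labels, received 1 mg/kg of CL-316243 (CL), a β3-adrenoceptor agonist that induces browning of white fat, or its vehicle, PBS, for 3 days. The strain is written as C57/BL6, C57/BL7, C57/BL8 and C57/BL9 in the labels of the 4 arrays and as C57/BL6 or C57BL/6 in their protocols. The injections were subcutaneous per the labels and intraperitoneal per the study's methods, and each array held SVF RNA pooled from 5 mice per the study's legend. There were 2 arrays of each group.

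MiRNA clusters are stretches of a primary transcript that fold into several hairpins, which are cut out one by one and each give a 5p and a 3p arm. The arms of a cluster share their transcription, but cutting, stability and strand choice can set their levels apart. The Mir322 and Mir503 hairpins are known for products that restrain the cell cycle, with cyclins and the phosphatase Cdc25a among their targets, and that accumulate as muscle precursors differentiate. A miRNA finds its targets mainly through its seed, bases 2 to 8.

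In the RefSeq annotation (GRCm38.p6), 7 hairpin genes of the cluster lay within 6353 bases on the minus strand, at chrX:53047997-53054349. The order of transcription was Mir322, Mir503, Mir351, Mir542, Mir450-2, Mir450-1 and Mir450b. The first 3 of these lay within the long noncoding RNA gene C430049B03Rik, and the other genes lay downstream of its end. MiR-450a-5p had the same mature sequence in Mir450-2 and Mir450-1, so that a spot for it cannot tell the genes apart. The mature sequences are shown here because the seeds decide which arms could share targets, with bases 2 to 8 in capitals, 5′ to 3′, from RefSeq:
miR-322-5p (Mir322, chrX:53054306-53054327): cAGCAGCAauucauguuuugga
miR-322-3p (Mir322, chrX:53054269-53054289): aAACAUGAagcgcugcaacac
miR-503-5p (Mir503, chrX:53054027-53054049): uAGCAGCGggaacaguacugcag
miR-351-5p (Mir351, chrX:53053315-53053338): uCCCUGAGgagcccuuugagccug
miR-542-5p (Mir542, chrX:53049453-53049474): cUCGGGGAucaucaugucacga
miR-542-3p (Mir542, chrX:53049415-53049436): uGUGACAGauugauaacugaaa
miR-450a-5p (Mir450-2, chrX:53048339-53048360, and Mir450-1, chrX:53048206-53048227): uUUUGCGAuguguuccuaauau
miR-450b-5p (Mir450b, chrX:53048044-53048065): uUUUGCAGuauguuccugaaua
miR-450b-3p (Mir450b, chrX:53048008-53048029): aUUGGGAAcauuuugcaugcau
No pair of the 9 arms had the same seed. The seeds of miR-322-5p and miR-503-5p, AGCAGCA and AGCAGCG, and those of miR-450a-5p and miR-450b-5p, UUUGCGA and UUUGCAG, were alike but not equal. Over their whole length, miR-322-5p and miR-503-5p were identical at 11 of 22 positions counted from the 5′ end, and miR-450a-5p and miR-450b-5p at 15 of 22.

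Each miRNA was read by 40 spots, divided over 2 or 4 probes of different length. The values below are log2 signals after background correction and quantile normalization, so that a difference of 1 is 2-fold, and a fold change is the CL mean minus the vehicle mean. Between 386 and 431 of the 1247 miRNAs were called detected on an array by the scanner software, and no spot was saturated. Limma was used to test the 425 miRNAs that both arrays of 1 or both groups detected, among them 7 of the 9 arms. The arrays of vehicle and CL lay in different rows of the slide, so that row and treatment cannot be told apart. Arrays of the same replicate number lay in the same slide column, and the differences within each column are given beside the fold changes. Nothing in the labels says that the arrays of a group came from separate experiments, so the p-values measure only the spread between these arrays.

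All 7 tested arms had a lower mean after CL (the scanner's own total per miRNA put miR-503-5p higher), and 50.8% of all tested miRNAs did. In the fit, 3 arms, miR-322-5p, miR-450a-5p and miR-542-5p, were called lower at an unadjusted p of 0.05 and 0 were called higher. Across all tested miRNAs 16.2% were called lower and 18.6% higher, 34.8% in all. These shares rest on few arrays: with 1 array left out, between 6.35% and 31.8% were called lower and between 14.4% and 61.9% in all, the highest without vehicle 1 and the lowest without CL 1. No miRNA passed after Benjamini-Hochberg adjustment (0% of 425 by limma, SAM or the methods' t-test), against 148 at an unadjusted p of 0.05 by limma, 60 by SAM and 52 by the t-test. The median log2 fold change of the tested arms was −0.37, and the quartiles of all tested miRNAs were −0.33, −0.01 and 0.34. Of the tested arms, 3 had been detected on both vehicle arrays and on neither CL array, which was the case for 5.65% of the tested miRNAs, while 0.941% showed the reverse. Entry in that way favours arms that are dimmer after CL, though it does not fix the sign of the fold change. MiR-542-5p, detected on 1 CL array, also entered through vehicle alone. The counts over the tested arms are therefore a description only.

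**Figure D1:**
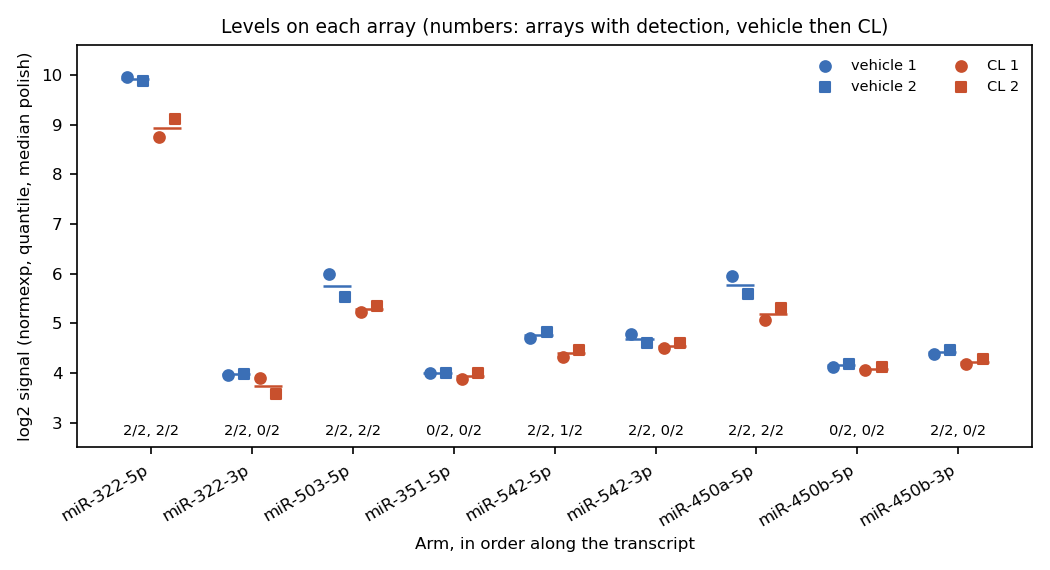
Log2 signal of the 9 arms (y axis) on each array, with the arms in order along the transcript (x axis), points for arrays and short lines for group means, and the number of arrays with detection under each arm. The vehicle and CL arrays of miR-322-5p stand about 1 log2 unit apart, while the other arms lie closer together, and levels of different arms cannot be compared.

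MiR-322-5p, the rodent counterpart of human miR-424-5p, had the lowest fold change of the arms in the fit. Vehicle arrays gave log2 signals of 9.97 and 9.89, and CL arrays 8.75 and 9.11. The groups did not overlap, and the gap between the CL arrays, 0.36, was larger than that between the vehicle arrays. The log2 fold change was −1.0 (SE 0.17, 95% confidence interval −1.45 to −0.55, 2 arrays per group, limma adjusted p = 0.0909). It was −1.22 within the slide column of replicate 1 and −0.78 within that of replicate 2. With the replicate number as a block, the adjusted p was 0.0471, and miR-322-5p was then the 1 arm past an adjusted p of 0.05. In that fit 9.41% of all tested miRNAs passed, and 5.88% passed with a lower level after CL. The share that passed was 25.6% when the median polish over spots was run to convergence, an alternative chosen after seeing the data. By fold change miR-322-5p was rank 17 of 425 from the lowest.

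The raw spots behind this value lay far above background. The 22-nucleotide probe for miR-322-5p, which pairs with the whole mature strand, had a median spot signal of 1309 and 1082 with vehicle and of 459 and 654 with CL, and all 20 of its spots were well above background on each array. The negative control spots averaged 31.7 to 38.6 on the 4 arrays. Of the 40 spots for miR-322-5p, 40 had a lower mean after CL.

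The other arm of the same hairpin, miR-322-3p, was near the limit of detection. Its log2 signal was 3.96 and 3.99 with vehicle and 3.89 and 3.58 with CL, where it was not well above background on either array. Both CL arrays were lower, but the first by 0.06 only within its column. The log2 fold change was −0.23 (95% confidence interval −0.64 to 0.18, adjusted p = 0.314). Since the arm was not well above background after CL, its level there is known only as near or under the limit of detection.

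MiR-503-5p, a relative of the miR-16 group that also acts on cell cycle regulators, was detected on every array. Its log2 signal was 5.99 and 5.53 with vehicle and 5.23 and 5.35 with CL. The CL arrays were both lower, yet the gap between the vehicle arrays was 0.46, about as large as that between the group means. The log2 fold change was −0.47 (SE 0.20, 95% confidence interval −0.99 to 0.05, adjusted p = 0.168), with −0.76 in the column of replicate 1 and −0.18 in that of replicate 2. The difference was not distinguishable from the spread between arrays in the fit. It was −0.70 without vehicle 2, the lower of the vehicle arrays, and −0.24 without vehicle 1.

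MiR-351-5p, from the next hairpin, has the seed of the miR-125 family. It was detected on no array and was not tested. Its log2 signal was 4.01, 4.0, 3.88 and 4.0 on vehicle 1, vehicle 2, CL 1 and CL 2, and its 16-nucleotide probe gave median spot signals of 41.9, 34.8, 39.0 and 34.5, near the negative controls. No statement on a change of this arm can be made from these arrays.

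Both arms of Mir542 were dim. MiR-542-5p had a log2 signal of 4.71 and 4.82 with vehicle and of 4.33 and 4.46 with CL, and was detected on both vehicle arrays and 1 CL array. Its groups did not overlap and its replicates lay close together. The log2 fold change was −0.37 (SE 0.13, 95% confidence interval −0.71 to −0.03, adjusted p = 0.132), with almost equal values of −0.38 and −0.36 in the slide columns. The call was lost with the replicate block, a fit in which 17.9% of all tested miRNAs were called lower, and also without CL 1 (−0.30) and without CL 2 (−0.44). MiR-542-3p, known as a repressor of the survival protein survivin, had a log2 signal of 4.79 and 4.60 with vehicle and of 4.50 and 4.60 with CL. Its groups overlapped, since the arrays of replicate 2 were alike. It was detected on no CL array, and its log2 fold change was −0.14 (95% confidence interval −0.50 to 0.21, adjusted p = 0.467). MiR-542-3p was called lower under 4 of 24 alternatives. After removal of each array's trend on probe base composition and length it was at −0.60 (limma adjusted p = 0.0477). In that fit 51 of 425 miRNAs passed an adjusted p of 0.05.

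At the far end of the cluster, miR-450a-5p had the second lowest fold change among the arms in the fit. Its log2 signal was 5.96 and 5.60 with vehicle and 5.06 and 5.30 with CL, and it was detected on every array. The groups did not overlap. The log2 fold change was −0.60 (SE 0.18, 95% confidence interval −1.09 to −0.11, adjusted p = 0.119), with −0.90 in the column of replicate 1 and −0.30 in that of replicate 2. Its rank was 50 of 425. The call was lost without vehicle 1 (−0.42), without CL 1 (−0.48) and without CL 2 (−0.72). MiR-450b-3p had a log2 signal of 4.38 and 4.46 with vehicle and of 4.17 and 4.27 with CL, where it was not detected. The groups did not overlap, and the log2 fold change was −0.20 (95% confidence interval −0.52 to 0.12, adjusted p = 0.287). MiR-450b-5p, at 4.13, 4.18, 4.06 and 4.12 on the 4 arrays, was detected on none of them and was not tested.

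**Figure D2:**
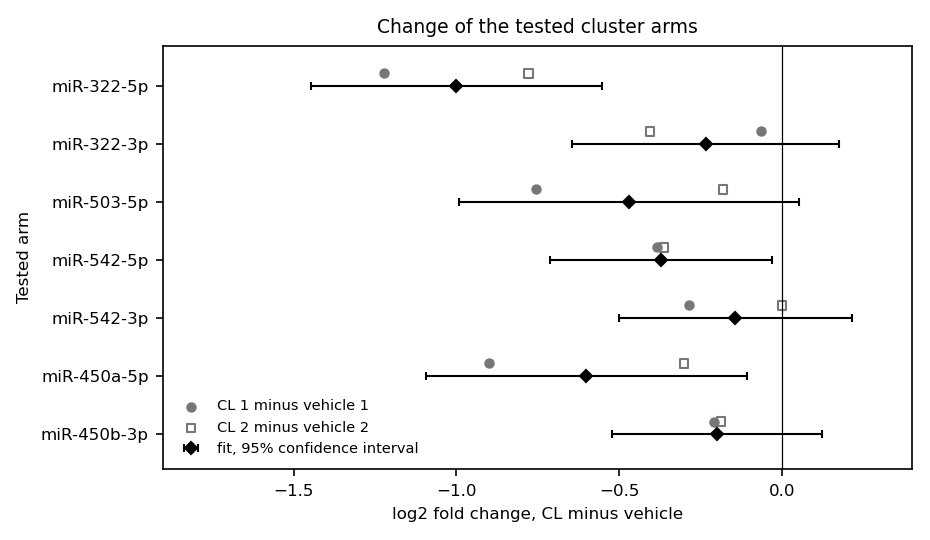
Log2 fold change of CL over vehicle (x axis) for the 7 tested arms (y axis), with diamonds and bars for the limma estimate and its 95% confidence interval and grey symbols for the difference within each slide column. The intervals of miR-322-5p, miR-542-5p and miR-450a-5p do not reach 0, and the signs are those of quantile-normalized spots, where the scanner's own total turns the sign of miR-503-5p.

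In the fit, the tested arms thus had the same sign, and their point estimates differed in size. The order of size depended on the processing. MiR-322-5p was not the lowest arm on the 75th percentile scale (detected or all probes) or with the scanner total. Nor was it with the sum of detected probes or in the deposited table. With that sum, miR-450a-5p was at −1.16 and miR-322-5p at −0.94. MiR-322-5p was the lowest under the other alternatives. For 6 of the 7 tested arms, all but miR-542-3p, the CL values were both under the lower vehicle value, as they were for 34.8% of all tested miRNAs. All 7 were lower in the column of replicate 1 and 6 in that of replicate 2, and 38.4% of all tested miRNAs were lower in both. Among the arms detected on all 4 arrays, which did not enter through 1 group, 2 of 3 (miR-322-5p and miR-450a-5p) were called lower, against 16.6% of the 362 miRNAs of that kind. The 95% confidence intervals overlapped for all but 2 of the 21 pairs of tested arms. In those pairs the fold change of miR-322-5p minus that of the other arm was −0.86 for miR-542-3p and −0.80 for miR-450b-3p on the log2 scale, as point estimates. Arms of a transcript are not replicates of the treatment, and 4 arrays are too few for a correlation between arms. In bulk RNA, fewer cells of a type and less RNA per cell cannot be told apart.

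**Figure D3:**
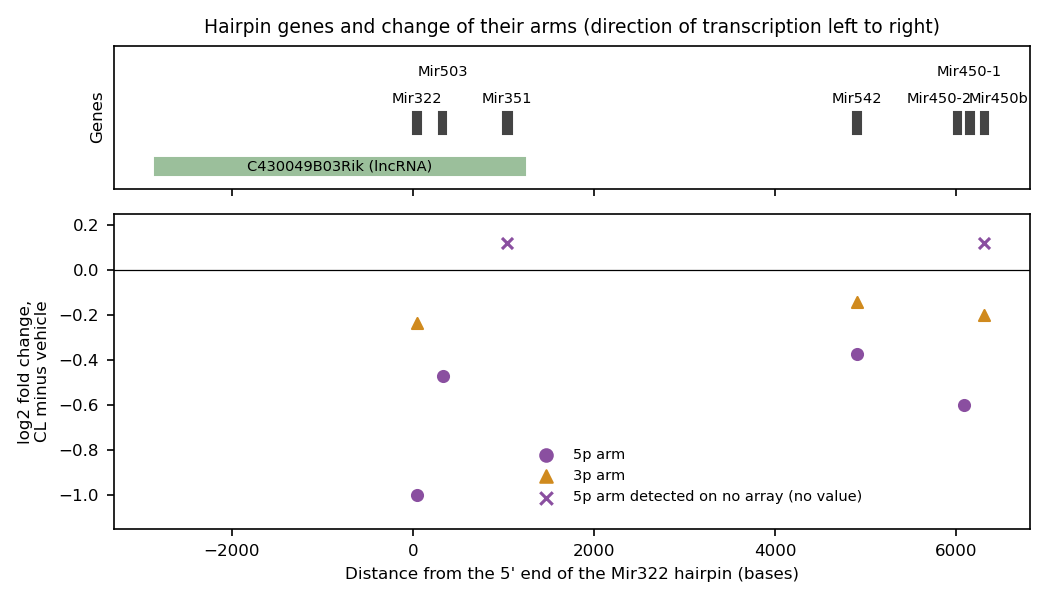
The upper panel shows the hairpin genes and the long noncoding RNA by distance in bases from the 5′ end of Mir322 (x axis), and the lower panel the log2 fold change of their arms (y axis), with miR-450a-5p placed between its genes. All tested arms lie below 0 along the whole stretch (the scanner's own total puts miR-503-5p above it). In this fit miR-322-5p at one end and miR-450a-5p near the other are the lowest, and crosses mark arms without a value.

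The dim arms gave more signal at their longer probes. All probes of the members pair with the 3′ end of the mature strand, and longer ones reach further toward the seed. The longest probes of the arms whose estimate moved most with length are shown here, 5′ to 3′, with the bases that the shortest probe lacks in capitals:
miR-322-3p probe: gtgttgcagcgCTT
miR-503-5p probe: ctgcagtactgttccC
miR-542-5p probe: tcgtgacatgatgatcCCC
miR-450b-3p probe: atgcatgcaaaatgttccCAA
For miR-322-3p, the median spot signal of the 14-nucleotide probe was 56.3 and 48.4 with vehicle and 43.0 and 36.9 with CL, and that of its 11-nucleotide probe was below the mean of the negative controls on every array. With vehicle, 9 and 7 of the 10 spots of the long probe were well above background, and with CL 0 were. For miR-542-5p, the 19-nucleotide probe gave 61.9 and 60.6 with vehicle and 46.2 and 46.6 with CL. Of its 10 spots, 10, 10, 0 and 3 were well above background. For miR-450b-3p, the 21-nucleotide probe gave 49.4 and 43.0 with vehicle and 41.6 and 37.0 with CL. Only 2, 1, 0 and 0 of its 10 spots were well above background. The 16-nucleotide probe of miR-503-5p gave 121.6 and 85.4 with vehicle and 72.3 and 71.0 with CL. Its 15-nucleotide probe gave 64.7 and 45.7 with vehicle and 45.8 and 46.7 with CL. On that shorter probe the raw signals of both CL arrays were close to that of vehicle 2, and vehicle 1 was the highest. The negative controls averaged 38.6 on CL 1 and 32.8 on CL 2, against 31.7 on vehicle 2. Above these controls, CL 1 lay below vehicle 2, and CL 2 was level with it.

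When only the longest probe of each miRNA was used, 6 of the 7 tested arms were called lower at an unadjusted p of 0.05, all but miR-542-3p, against 17.4% of all tested miRNAs. The log2 fold changes were then −0.54 for miR-322-3p, −0.56 for miR-503-5p, −0.57 for miR-542-5p and −0.35 for miR-450b-3p. MiR-322-5p and miR-450a-5p stayed near their values, at −1.02 and −0.62. MiR-542-3p was at −0.11. Adjusted p-values of the 6 called arms lay between 0.112 and 0.129. Of these, miR-322-3p and miR-450b-3p were detected on neither CL array and miR-542-5p on 1. They entered the test through the vehicle arrays, so the count of 6 is a description only.

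**Figure D4:**
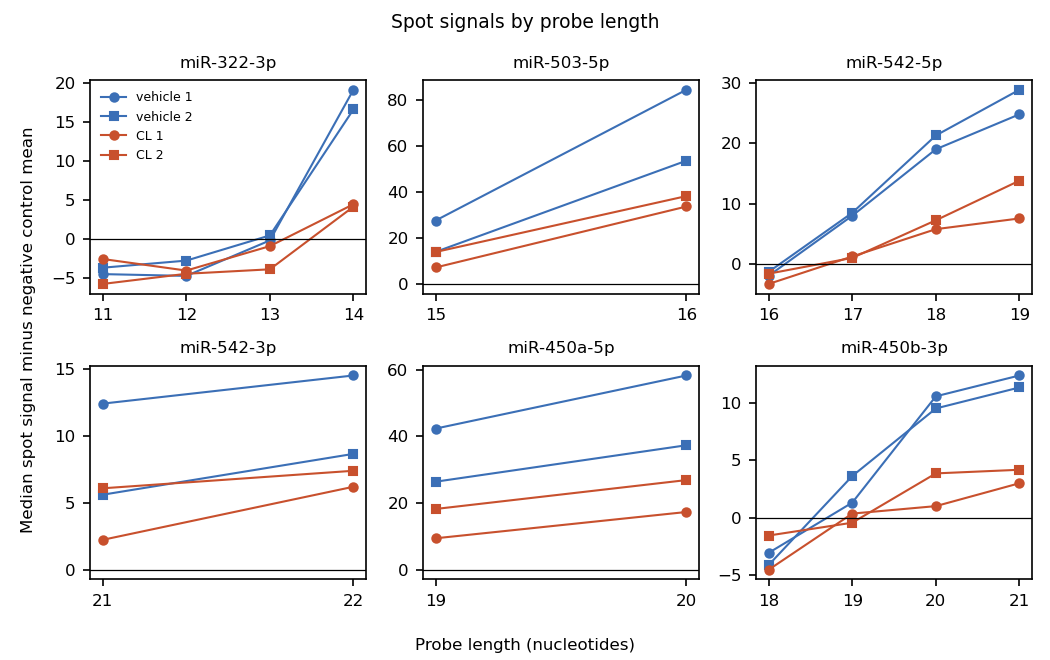
Median spot signal minus the mean of the negative control spots (y axis) against probe length in nucleotides (x axis) for 6 arms, with a line for each array before normalization. The vehicle arrays separate from the CL arrays mainly at the longest probes of miR-322-3p, miR-542-5p and miR-450b-3p, while the CL 2 array of miR-542-3p stays at the level of vehicle 2.

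Across the spots themselves, 39 of 40 had a lower mean raw signal after CL for both miR-503-5p and miR-450a-5p. The number was 34 for miR-542-5p, 33 for miR-542-3p, 30 for miR-450b-3p and 24 for miR-322-3p. For the undetected arms miR-351-5p and miR-450b-5p the number was 24 and 20. These spots share an array and an RNA sample, so they are not replicates. The signals were taken before background correction and normalization, and no such count was made over all miRNAs. The negative controls averaged 37.1 and 31.7 with vehicle and 38.6 and 32.8 with CL, so 20 of 40 need not be the neutral count for dim arms. The remaining arms of these hairpins on the array, miR-351-3p, miR-450a-1-3p, miR-450a-2-3p and miR-503-3p, were detected on no array. Of these, miR-450a-1-3p is identical to miR-450b-3p at 20 of 22 positions.

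MiRNAs from other loci that carry the seed of an arm are of interest because they can bind many of the same targets. There were 14 on the array, of which 9 were tested. Of these, 2 were called higher and 0 lower, beside 18.6% higher and 16.2% lower among all tested miRNAs. The seed of miR-322-5p was shared by 9 miRNAs of the miR-15 and miR-16 group and others, and 3 of them are shown with the miR-125 relative of miR-351-5p, seeds in capitals:
miR-16-5p: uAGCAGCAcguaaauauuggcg
miR-195a-5p: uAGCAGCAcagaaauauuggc
miR-497-5p: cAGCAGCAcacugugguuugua
miR-125b-5p: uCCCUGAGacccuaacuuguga
The 5 tested carriers of AGCAGCA outside the cluster had log2 fold changes between 0.11 and 0.59 (median 0.25), against −1.0 for miR-322-5p, but of these miR-497-5p alone was above 0 under 25 of 25 alternatives. MiR-497-5p had a log2 signal of 10.28 and 9.84 with vehicle and of 10.63 and 10.66 with CL, groups that did not overlap. It was the 1 carrier of this seed that was called, at 0.59 (95% confidence interval 0.09 to 1.08, adjusted p = 0.120). The values were 0.31 for miR-15a-5p, 0.11 for miR-15b-5p, 0.17 for miR-16-5p and 0.25 for miR-195a-5p, each with an interval that held 0. The intervals of miR-15a-5p, miR-15b-5p, miR-16-5p, miR-195a-5p and miR-497-5p did not overlap that of miR-322-5p. How many of all tested miRNAs also did not was not counted. MiR-322-5p was rank 17 of 425 from the lowest, and the quartiles of all tested miRNAs were −0.33, −0.01 and 0.34. The gap is therefore no trait of its seed relatives. After removal of each array's trend on probe base composition and length, miR-15a-5p and miR-15b-5p were at −0.09 and −0.20 and miR-322-5p at −1.42.

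Among carriers of the miR-351-5p seed, miR-125b-5p was called higher, at 0.86 (95% confidence interval 0.34 to 1.39, adjusted p = 0.103), and miR-125b-5p was above 0 under 25 of 25 alternatives. MiR-125a-5p differed little between the groups, at 8.21 and 8.27 with vehicle and 8.21 and 8.25 with CL. MiR-6394 was at −0.39 and miR-6352, which has the seed of miR-450b-3p, at −0.11, neither of them called.

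**Figure D5:**
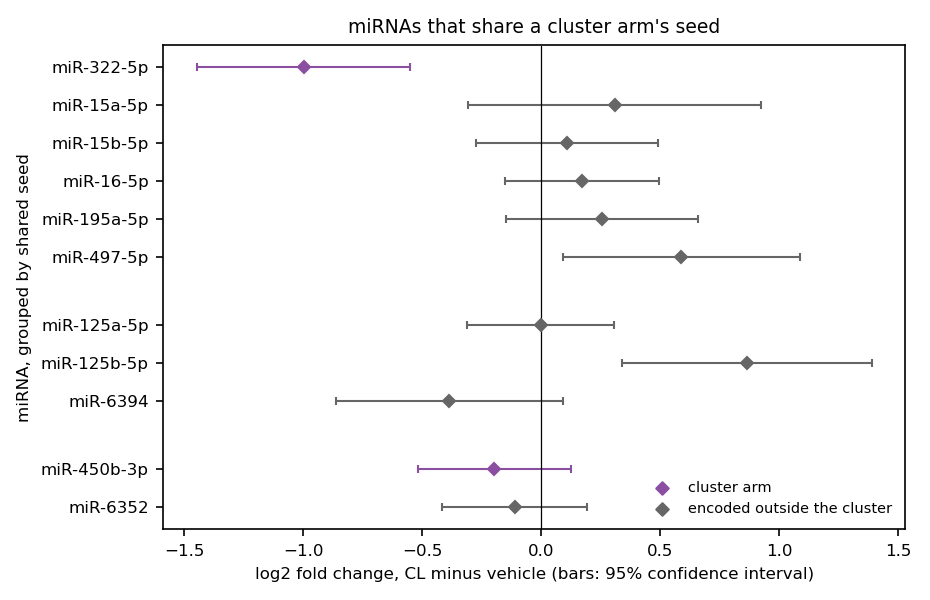
Log2 fold change of CL over vehicle with its 95% confidence interval (x axis) for the tested miRNAs that share the seed of miR-322-5p, miR-351-5p or miR-450b-3p (y axis, grouped by seed). MiR-322-5p lies at −1.0, apart from its 5 seed relatives at 0.11 to 0.59, 2 of which (miR-15a-5p and miR-15b-5p) lie below 0 after removal of the probe trend and 3 of which (miR-15b-5p, miR-16-5p and miR-195a-5p) do in the deposited table.

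The 5 tested miRNAs outside the cluster whose profile over the 4 arrays, centred on its own mean, lay nearest to the mean profile of the tested arms were miR-30a-5p, miR-467a-3p, miR-30c-5p, miR-27b-3p and miR-30a-3p. The Euclidean distances on the log2 scale ran from 0.035 to 0.174. MiR-30a-5p, the nearest, had log2 signals of 10.33 and 10.21 with vehicle and of 9.80 and 9.86 with CL. The tested arms themselves lay 0.181 to 0.597 from their mean profile, with miR-322-5p the farthest. The 5 were picked for the smallest distances, so being nearer than the arms follows from the choice. The profiles were not scaled, so a large change alone lengthens the distance.

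Markers of cell types in the SVF moved between the same arrays, and their part in the values of the cluster was not tested. Among all 425 tested miRNAs 18.6% were called higher and 16.2% lower, and 0 passed adjustment in the fit. Both arms of miR-126, an endothelial miRNA, were called lower, and their summed signal ran from 13.79 to 13.92 on the log2 scale with vehicle and from 12.32 to 12.65 with CL. Of the mural markers 1 of 2 was called lower (8.61 to 8.73 with CL against 9.06 to 9.31 with vehicle). All 4 fibroblast miRNAs were called higher (12.59 to 12.62 against 10.98 to 11.73), as were all 3 red cell miRNAs (13.80 to 14.04 against 13.00 to 13.22). After removal of the probe trend, the red cell miRNAs miR-451a and miR-144-5p lost their calls, at 0.23 and 0.37 against 0.73 and 0.92 before. Of 4 leukocyte miRNAs 2 were called higher and 1 lower (11.69 to 11.73 against 10.75 to 11.16). None of the 4 muscle miRNAs was called (8.48 to 8.62 against 7.75 to 8.66). Of 5 epithelial or mesothelial miRNAs 4 were detected on no array and the tested one was not called (6.72 to 6.75 against 6.46 to 6.47). The markers of the endothelial, leukocyte, red cell, fibroblast, mural and muscle lists were detected on every array.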

How the data were processed

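RNA of 4 SVF samples was hybridised to one-colour (Cy3) Agilent mouse miRNA arrays. The authors deposited scanner files of Feature Extraction 10.7.1.1 with the linear intensity of each spot, and a log2 table of processed values that they describe as quantile-normalized, in which undetected miRNAs sit at the lowest value of their array. The groups came from the labels. The cluster and the lists of related miRNAs and cell markers were chosen with earlier results of these data known.

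The mean spot signal was corrected with normexp (no local background, offset 0) in limma 3.58.1 under R 4.3.3. Control and outlier spots were dropped before quantile normalization, and a median polish over spots (tolerance 0.01) gave a log2 signal per miRNA. The 425 tested miRNAs were those that both arrays of 1 or both groups detected. Two-sided tests of CL against vehicle used lmFit and eBayes, and p-values were adjusted by Benjamini-Hochberg over the 425. Calls use an unadjusted p of 0.05. An exact permutation test of 2 against 2 arrays cannot give a p under 0.333. The number of arrays limits the precision.

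The alternatives were other scalings, background corrections, spot summaries, filters and tests (SAM and the t-test that the methods name), removal of each array's trend on probe base composition and length, the replicate number as a block, and each array left out. Arrays with the same number deviated together with a correlation of 0.12 over the tested miRNAs, and no label pairs them, so the block is an alternative. Sequences and positions are from RefSeq (GRCm38.p6), in which 1017 of the 1247 array names matched exactly and 19 more matched through a probe, among them miR-497-5p. The scanner files name build mm9 and list the 9 arms at mirrored positions within their hairpins, so these positions were not used. Named miRNAs are the 9 arms, the other arms of the cluster, the carriers of their seeds, the 5 miRNAs of nearest profile, and a cell marker where a result turns on it.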

Additional observations from a re-analysis of the deposited data

How the results depend on the processing

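MiR-322-5p was lower at an unadjusted p of 0.05 under 25 of 25 alternatives, with log2 fold changes from −1.42 to −0.79 and adjusted p from 0.00569 to 0.340. MiR-450a-5p was called under 17 of 25 and miR-542-5p under 14 of 24. Only 1 sign turned: the scanner's own total per miRNA put miR-503-5p at 1.11, where its total on CL 1 was 175.1 against 13.9 for the sum of its detected probes. The number of arms called lower was 3, beside 16.2% of all tested miRNAs called lower in the same fit. It became 7 on the 75th percentile scale over detected probes (beside 23.5%), 6 with the longest probe alone (17.4%), and 5 on that scale over all probes (18.6%), in the deposited table (14.6%) and after removal of the probe trend without (17.6%) or with the replicate block (16.7%). It was 1 with median centring (12%), SAM (6.35%) or the methods' t-test (4.71%). With the replicate block alone it was 2 (17.9%), and miR-542-5p lost its call. With 1 array left out it ranged from 1 to 4, and was 1, miR-322-5p, without CL 1 (6.35%) and without CL 2 (8.94%). The 7 arms with a lower mean became 3 where only miRNAs detected on all 4 arrays were kept, since fewer arms were then tested. The median log2 fold change of −0.37 became −1.03 (75th percentile, detected probes), −0.91 (all probes), −0.13 (normexp with offset 50), −0.22 (no background correction), −0.49 (no normalization), −0.44 (median centring), −0.56 (longest probe), −2.53 (scanner total), −0.94 (sum of detected probes), −2.15 (deposited table), −0.60 (detected on all 4 arrays) and −0.56 (trend removed, with or without the replicate block), and ranged from −0.44 to −0.25 with 1 array left out. The cause of these shifts was not tested. The medians of −2.53 and −2.15 are the values of miR-542-3p and miR-322-3p, both undetected after CL. The scanner total of miR-542-3p was 11.8 and 66.7 with vehicle and 2.02 and 1.87 with CL. In the deposited table undetected miRNAs sit at the lowest value of their array, so neither median is a measured size of change. Without normalization the median of all miRNAs was −0.12. Of all calls 46.6% were lower, against 60.6% with the 75th percentile of detected probes, 65.7% without normalization and 57.4% in the deposited table. Numbers past an adjusted p of 0.05 over all miRNAs were 0, 40 with the replicate block, 109 when the median polish was also run to convergence (chosen after seeing the data), 51 with the trend removed, 60 with the trend removed and the block, 44 with median centring, 64 without normalization and 27 with the scanner total, and from 0 to 7 with the other scalings, corrections, summaries, filters and tests. They were 230 without vehicle 1, 1 without vehicle 2, 21 without CL 1 and 31 without CL 2. With 1 array left out, the lone array is assumed to vary like the other group. Signal over background limits what can be said of miR-351-5p, miR-450b-5p and the arms undetected after CL.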
